A study of Arabidopsis thaliana with 16 samples.

Results

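The comparison described here is that of petals overexpressing CONSTANS (CO) with wild-type petals in the morning. It sets the 2 libraries of 35S:CO petals at ZT4 against the 2 of Col-0 petals at ZT4, 4 of the 16 libraries of the study, and it was read across all genes. Col-0 is the Arabidopsis thaliana wild type, and 35S:CO plants carry CO behind the 35S promoter, a viral promoter that is active in nearly all plant cells. The study also holds petals of co-10, which lack CO function, at ZT4, petals of the 3 genotypes at ZT16, and whole 10-day-old seedlings at ZT16 of the wild type and the overexpressor, with 2 biological replicates in each of its 8 groups. ZT counts hours after lights on, so ZT4 falls 4 h into the light period and ZT16 at its end, since all plants grew in long days. The sources used here state neither the stage of the flowers nor the number of plants behind a petal sample. Nothing in the labels says how many independent 35S:CO lines were used, so the 35S:CO libraries stand for that line as sampled.

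CO is a B-box zinc finger protein of the photoperiod pathway. In leaves of wild-type plants its protein is stable in the light at the end of a long day, and it then activates FT, which encodes the mobile florigen. CO acts together with subunits of the NF-Y complex and contacts short elements of the FT promoter. Petals are short-lived organs, and jasmonate is a hormone of flower opening, defence and senescence; the study's title joins CO and jasmonate signalling to floral senescence.

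Levels are FPKM, fragments scaled by transcript length and library size, as deposited by the authors. Differences are on the log2(FPKM + 1) scale, 35S:CO minus Col-0, with their standard error, and they understate the change of genes at low levels. The test was limma, on the 17876 genes that reached 1 FPKM in 2 or more of the 12 petal libraries, and genes with a Benjamini-Hochberg adjusted p under 0.05 over all of them are termed called. The petal regulators PISTILLATA (741 to 1148 FPKM) and APETALA3 (427 to 696 FPKM) were abundant in all 4 libraries. Of 22 markers of pollen and anther, 12 were at 0 in all 4 libraries, and 10 were above 0 in each library. The markers summed to 555 and 1159.8 FPKM in Col-0 and to 721 and 869 FPKM in 35S:CO, and the pectin methylesterase gene of pollen VGD1 supplied most of each sum. Depth, estimated from the step between low values, was about 19090000 and 7670000 fragments in the Col-0 libraries and 14230000 and 18950000 in those of 35S:CO. The 4 ribosomal RNA loci held 21.6% and 35.0% of the summed FPKM in Col-0 and 26.7% and 48.8% in 35S:CO. The metallothionein gene MT1A stood at 0.509 and 9673 FPKM in Col-0 at ZT4, at 10922 and 14274 FPKM in 35S:CO, and at 0.474 and 0.677 FPKM in Col-0 and 3716 and 10227 FPKM in co-10 at ZT16. A value near 0, also in both libraries of a group, need not mean that the transcript was missing.

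Few genes separated the genotypes beyond the spread between replicates. Of the 17876 genes, 19 (0.106%) were called, 16 of them (0.0895%) higher and 3 (0.0168%) lower in 35S:CO petals. The number changed with the libraries and the fit used. Leaving out 1 of the 4 libraries compared keeps 1 in its group, which by itself widens the standard error. A call lost in that way need not have rested on that library. A fit without the co-10 libraries called 39, of which 32 were higher and 7 lower. At an unadjusted p under 0.05 limma gave 1109 genes (6.20%), 428 higher (2.39%) and 681 lower (3.81%). The groups did not overlap in 6827 genes (38.2%). Over all genes the median difference was -0.07, and its quartiles were -0.39 and 0.24. The median absolute difference between the group means was 0.32, against 0.44 between the Col-0 replicates and 0.32 between the 35S:CO replicates. At least 2-fold apart, with no overlap, were 488 genes on the higher and 692 on the lower side, so most differences of that size did not pass the test.

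**Figure D1:**
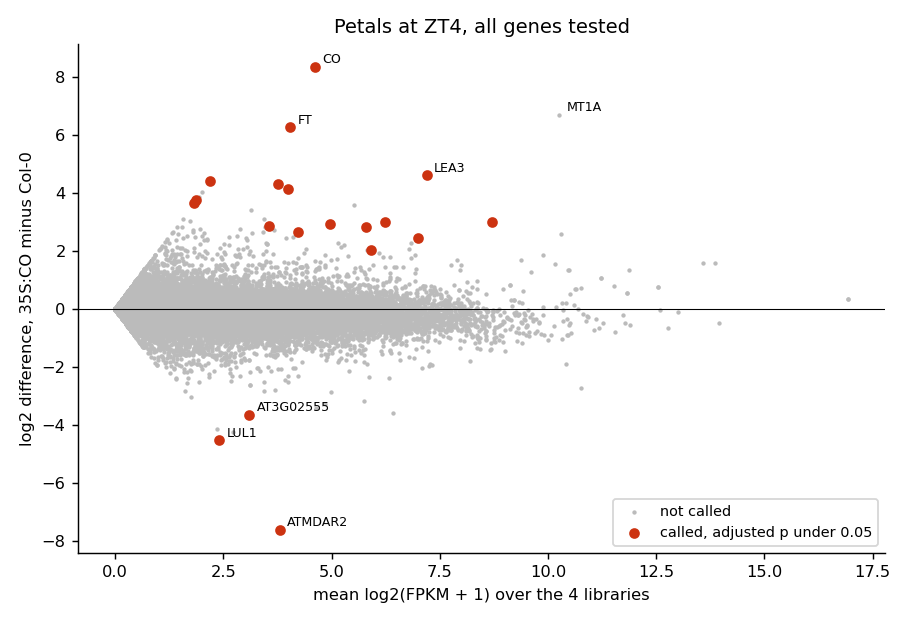
The log2 difference between 35S:CO and Col-0 petals at ZT4 (vertical axis) is plotted against the mean log2(FPKM + 1) over the 4 libraries (horizontal axis) for 17876 genes. The 19 called genes are red, from CO at 8.33 to ATMDAR2 at -7.60, and the unlabelled bulk lies around 0. MT1A, at 6.69, was not called, and its Col-0 replicates stood at 0.509 and 9673 FPKM.

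The transgene set the 35S:CO libraries apart first. CO (AT5G15840) stood at 0.108 and 0.703 FPKM in Col-0 petals and at 472 and 414 FPKM in 35S:CO petals. The groups did not overlap, and the co-10 petals, at 0.0256 and 0.260 FPKM, lay in the Col-0 range or under it. The difference was 8.33 ± 0.33 (adjusted p = 4.46e-07). Reads of the transgene and of the endogenous gene cannot be told apart in these values. CO shares 14.0% of its 75-base stretches with AT5G15843, an antisense locus that overlaps it by 1967 bases, and that locus stood at 0 and 1.00 FPKM in Col-0 and at 5.68 and 4.45 FPKM in 35S:CO.

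FT (AT1G65480), the florigen gene and the best known target of CO, was high in petals that overexpress CO. It stood at 2.56 and 0 FPKM in Col-0 petals and at 186 and 111 FPKM in 35S:CO petals. Both 35S:CO libraries lay far above both Col-0 libraries and above co-10, at 4.49 and 0.393 FPKM. The difference was 6.26 ± 0.71 (adjusted p = 0.00511). With single libraries left out in turn, the difference ran from 5.34 to 7.18. The call was not kept in each of these fits, which leave 1 library in the group. With 0.1 in place of 1 FPKM added, adjusted p was 0.198. TSF, the closest relative of FT and also a floral inducer, stood at 0.710 and 0 FPKM in Col-0 and at 3.95 and 3.34 FPKM in 35S:CO, a difference of 1.83 ± 0.58 that did not pass (adjusted p = 0.525).

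The stretches upstream of FT and of 3 other genes that rose are shown because they hold the letters of the element that CO is known to bind in the FT promoter, TGTG and ATG with 2 or 3 bases between them. Each is the 300 bases before the annotated gene start, read from TAIR10.1 in the direction of the gene, with matches to TGTGNNATG, TGTGNNNATG or CCAAT, the core of NF-Y sites, on either strand in capitals. That of FT is chr1:24331073-24331372 (plus strand), that of PDX1.1 chr2:16010933-16011232 (plus), that of AT2G16890 chr2:7316489-7316788 (plus) and that of AT2G25510 chr2:10855971-10856270 (plus).
FT: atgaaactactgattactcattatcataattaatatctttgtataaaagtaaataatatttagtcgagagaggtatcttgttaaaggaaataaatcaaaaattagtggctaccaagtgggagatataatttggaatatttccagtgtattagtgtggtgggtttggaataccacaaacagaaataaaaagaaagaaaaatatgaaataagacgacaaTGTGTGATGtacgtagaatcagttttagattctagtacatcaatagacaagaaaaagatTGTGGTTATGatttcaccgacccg
PDX1.1: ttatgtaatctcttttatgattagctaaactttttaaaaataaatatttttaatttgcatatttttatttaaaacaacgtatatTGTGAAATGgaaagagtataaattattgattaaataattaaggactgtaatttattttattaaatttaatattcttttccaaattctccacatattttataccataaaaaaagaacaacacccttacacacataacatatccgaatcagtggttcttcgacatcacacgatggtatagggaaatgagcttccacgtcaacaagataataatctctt
AT2G16890: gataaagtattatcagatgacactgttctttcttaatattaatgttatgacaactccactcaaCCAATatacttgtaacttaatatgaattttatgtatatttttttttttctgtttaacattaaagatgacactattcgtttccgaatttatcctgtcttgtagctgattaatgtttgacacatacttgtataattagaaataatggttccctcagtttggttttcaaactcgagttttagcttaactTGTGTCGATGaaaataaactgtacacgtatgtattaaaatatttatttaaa
AT2G25510: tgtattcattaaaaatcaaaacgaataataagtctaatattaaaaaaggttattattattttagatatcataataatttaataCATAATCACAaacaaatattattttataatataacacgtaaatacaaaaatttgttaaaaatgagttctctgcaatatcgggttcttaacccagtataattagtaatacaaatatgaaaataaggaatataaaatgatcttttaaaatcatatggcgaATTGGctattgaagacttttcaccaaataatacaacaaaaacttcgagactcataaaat

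In FT the matches began 83 and 24 bases before the gene start, in PDX1.1 216 bases and in AT2G16890 51 bases before it. The match of AT2G25510, 217 bases before the start, was on the opposite strand. Of the 16 genes that rose, 5 held a match to either spelling of the CO element, these 4 and PDX1L4, whose stretch overlaps another locus. The stretches of PDX1.1 and PDX1L4 share an identical run of 93 bases that holds the match, so these 2 are 1 duplicated sequence and not separate matches. None of the 3 that fell held one. The element is known from the FT promoter, so the match of FT was given in advance. The 16 also include CO, whose reads cannot be split between the transgene and the endogenous gene. Among the same stretches of 17107 protein-coding genes tested, 8.1% held one, and the 5 of 16 were not tested against this share. CCAAT was found in 10 of the 16 and in all 3 that fell, against 53.8% of all stretches. CACGTG, the G-box, was found in 2 of the 16 and 1 of the 3, against 8.2%, and AAAATATCT, the evening element of clock genes, in 2 of the 16 and 0 of the 3, against 3.0%. A match is a run of letters and not a shown binding site, and no binding was measured here.

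**Figure D2:**
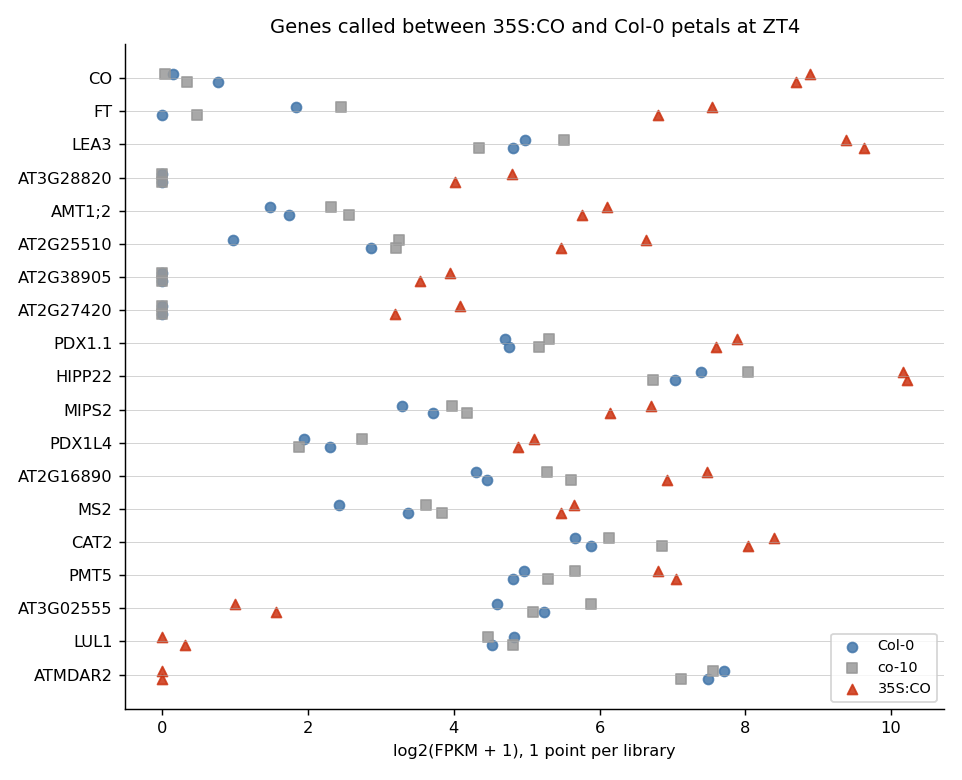
Each row is 1 of the 19 genes called between 35S:CO and Col-0 petals at ZT4, ordered by its difference, and each point is 1 library on the log2(FPKM + 1) axis. The red triangles of 35S:CO lie right of the blue circles of Col-0 in the upper 16 rows and left of them in the lower 3, with the grey squares of co-10 mostly beside Col-0.

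The 3 genes that fell had values near 0 in 35S:CO petals at ZT4. ATMDAR2 (AT5G03630, chromosome 5, 922048 to 924728), for a monodehydroascorbate reductase that regenerates ascorbate, stood at 209 and 179 FPKM in Col-0, while its value was 0 in each 35S:CO library. The groups did not overlap, and co-10 petals, at 188 and 138 FPKM, were near the wild type. The difference was -7.60 ± 0.28 (adjusted p = 3.81e-07), and it passed in each of the 15 alternative settings. LUL1 (AT5G03200), for a RING-type ubiquitin ligase, stood at 27.3 and 21.9 FPKM in Col-0 and at 0 and 0.239 FPKM in 35S:CO. It was 206-fold lower in mean FPKM, with a difference of -4.52 ± 0.36 (adjusted p = 4.04e-04), and co-10 kept 21.1 and 27.2 FPKM. AT3G02555, for an uncharacterized protein, stood at 23.2 and 36.8 FPKM in Col-0 and at 0.992 and 1.96 FPKM in 35S:CO. Its difference was -3.64 ± 0.44 (adjusted p = 0.0072). With single libraries left out in turn it ran from -3.96 to -3.32, and the call was not kept in each of these fits.

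ATMDAR2 stood alone among the genes of ascorbate synthesis and recycling. Of 18 members tested it was the 1 called gene and also the 1 with an unadjusted p under 0.05, and the median difference was -0.20, against -0.07 over all genes. MDAR1, for another monodehydroascorbate reductase, stood at 179 and 194 FPKM in Col-0 and at 226 and 201 FPKM in 35S:CO, a difference of 0.19 ± 0.26. MDAR4, for the peroxisomal membrane enzyme, differed by -0.34 ± 0.28 and MDAR6 by 0.09 ± 0.41. APX1, for a cytosolic ascorbate peroxidase, stood at 282 and 248 FPKM in Col-0 and at 178 and 185 FPKM in 35S:CO, a difference of -0.54 ± 0.32 that did not pass (adjusted p = 0.923). No member of the list was called higher.

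ATMDAR2 and LUL1 lie 164410 bases apart at most on chromosome 5 (760319 to 924728), with 62 loci from the first to the last, of which 41 were tested. The ends of the stretch were set by these called genes, so their own low values within it follow from that choice. Between them AT5G03285, which the annotation gives no product, stood at 44.5 and 9.11 FPKM in Col-0 and at 0 and 0.519 FPKM in 35S:CO. Its difference of -4.12 ± 0.67 did not pass (adjusted p = 0.0611). These 3 were the only genes of the 41 under -2, the lowest of the others was at -1.59, and the median was -0.12. At ZT16, in other libraries of the same fit, 204 of 17876 genes (1.14%) were called in either direction. Of the 41, 5 were called lower there, these 3 with AT5G03495 (-3.13 ± 0.56) and AT5G03550 (-2.67 ± 0.52). Their ZT4 differences were -1.39 ± 0.56 and -1.59 ± 0.52. Over all genes, 6 were under 1 FPKM in both 35S:CO libraries and over 5 FPKM in both Col-0 libraries, and 3 of them were ATMDAR2, LUL1 and AT5G03285.

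**Figure D3:**
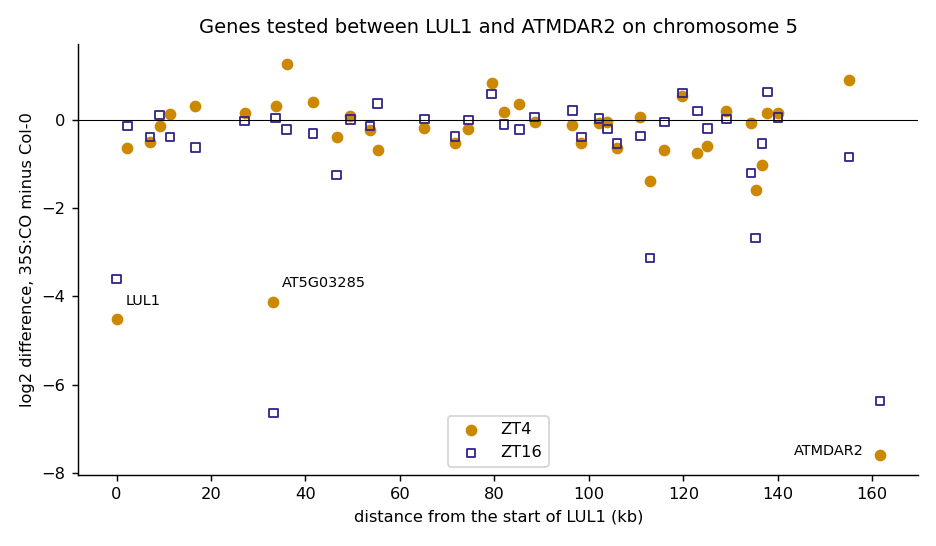
The log2 difference between 35S:CO and Col-0 petals is plotted for the 41 genes tested from LUL1 to ATMDAR2 against the distance from the start of LUL1 in kb, at ZT4 (filled circles) and ZT16 (open squares). LUL1, AT5G03285 and ATMDAR2 lie between -7.60 and -4.12 at ZT4, and the others between -1.59 and 1.28.

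Several of the genes that rose encode enzymes of cofactor and amino acid metabolism. PDX1.1 (AT2G38230), for a catalytic subunit of pyridoxal phosphate synthase in vitamin B6 synthesis, stood at 25.1 and 26.0 FPKM in Col-0 and at 235 and 192 FPKM in 35S:CO. The groups were far apart, at 8.36-fold in mean FPKM and a difference of 3.01 ± 0.38 (adjusted p = 0.0098). PDX1L4 (AT2G38210), annotated as a PDX1-like protein, stood at 2.86 and 3.94 FPKM in Col-0 and at 33.3 and 28.5 FPKM in 35S:CO, a difference of 2.86 ± 0.41 (adjusted p = 0.0252). The 2 loci are near neighbours on chromosome 2 and share sequence, 32.7% of the 75-base stretches of PDX1.1 and 43.9% of those of PDX1L4, so the counting may have divided reads between them. The other catalytic subunit gene, PDX1.3, stood at 236 and 229 FPKM in Col-0 and at 206 and 192 FPKM in 35S:CO. Its difference was -0.22 ± 0.28. PDX2, for the glutaminase subunit, differed by -0.30 ± 0.49 and SOS4, for pyridoxal kinase, by -0.64 ± 0.45, so 2 of 7 genes of the pathway were called and the median was -0.05.

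MIPS2 (AT2G22240), for an enzyme that makes myo-inositol phosphate from glucose 6-phosphate, stood at 8.74 and 12.1 FPKM in Col-0 and at 103 and 70.0 FPKM in 35S:CO. It rose by 2.93 ± 0.35 (adjusted p = 0.0072). Its relative MIPS1 had values in the opposite order, 60.0 and 54.3 FPKM in Col-0 and 31.5 and 19.5 FPKM in 35S:CO, a difference of -1.17 ± 0.35 that did not pass (adjusted p = 0.473). MIPS2 was the 1 called gene of 9 tested for myo-inositol and galactinol, whose median was -0.25. MS2 (AT3G03780), here methionine synthase 2, stood at 4.37 and 9.38 FPKM in Col-0 and at 49.1 and 43.5 FPKM in 35S:CO. It rose by 2.66 ± 0.38 (adjusted p = 0.0252), while ATMS1, the more abundant methionine synthase gene of these petals, stood at 84.2 and 187 FPKM in Col-0 and at 196 and 227 FPKM in 35S:CO (0.74, not called). CAT2 (AT4G35090), for a peroxisomal catalase that breaks down hydrogen peroxide, stood at 49.9 and 58.2 FPKM in Col-0 and at 334 and 262 FPKM in 35S:CO. It rose by 2.43 ± 0.32 (adjusted p = 0.0108), and the other catalase genes CAT1 and CAT3 differed by -0.39 ± 0.32 and 0.09 ± 0.46. AT2G16890, for a UDP-glycosyltransferase, a class of enzyme that adds sugar to small molecules, stood at 18.7 and 20.9 FPKM in Col-0 and at 176 and 120.2 FPKM in 35S:CO. It rose by 2.82 ± 0.34 (adjusted p = 0.0072), and co-10 petals stood between the groups at 37.9 and 47.6 FPKM. Differences between a gene and its relatives were not tested, and the relatives outside the lists were picked after their values were seen.

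The differences of PDX1.1, PDX1L4, CAT2, MIPS2, MS2 and AT2G16890 stayed between 2.19 and 3.20 with single libraries left out in turn. None of these genes kept its call in every such fit, and each of these fits leaves 1 library in a group.

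Transporters and metal-binding proteins were a second set. AMT1;2 (AT1G64780), an ammonium transporter best known from roots, stood at 1.79 and 2.34 FPKM in Col-0 petals and at 67.7 and 53.4 FPKM in 35S:CO petals. The groups were 29.3-fold apart in mean FPKM, with a difference of 4.32 ± 0.36 (adjusted p = 5.86e-04), and the call held without each of the 4 libraries. AMT1;1, its relative, stood at 2.89 and 2.57 FPKM in Col-0 and at 5.23 and 4.18 FPKM in 35S:CO (0.61 ± 0.38, not called). PMT5 (AT3G18830), a proton symporter for sugar alcohols and monosaccharides, stood at 30.2 and 27.0 FPKM in Col-0 and at 111 and 131 FPKM in 35S:CO, a rise of 2.04 ± 0.31 (adjusted p = 0.0346). HIPP22 (AT1G22990), a heavy metal-associated isoprenylated protein, was abundant already in Col-0, at 167 and 130.1 FPKM, and reached 1149.6 and 1193 FPKM in 35S:CO. It rose by 2.98 ± 0.38 (adjusted p = 0.0098). With single libraries left out in turn, the difference ran from 2.80 to 3.16 for HIPP22 and from 1.92 to 2.16 for PMT5. Their calls were not kept in these fits, which leave 1 library in a group. Of 18 genes of nitrogen transport and remobilisation, AMT1;2 alone was called, and the median was 0.34. NIA2, for nitrate reductase, came next at 4.30 and 8.99 FPKM in Col-0 and 25.7 and 59.6 FPKM in 35S:CO, a difference of 2.47 ± 0.46 that did not pass (adjusted p = 0.138). Its relative NIA1 differed by -0.92 ± 0.37.

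Another set is named for cold, salt or desiccation. LEA3 (AT1G02820), of a late embryogenesis abundant family, stood at 30.6 and 27.2 FPKM in Col-0 and at 663 and 792 FPKM in 35S:CO, 25.2-fold higher in mean FPKM. It rose by 4.60 ± 0.47 (adjusted p = 0.00214). AT2G38905, of a low temperature and salt responsive family, had no FPKM above 0 in Col-0, against 14.5 and 10.6 FPKM in 35S:CO, a difference of 3.74 ± 0.37 (adjusted p = 0.00196) that depends on the added 1 FPKM. It overlaps AT2G38900 on the other strand by 115 bases, and that locus was at 0 in all petal libraries. Both calls held without each of the 4 libraries. Of 20 genes of abscisic acid, cold and late embryogenesis, LEA3 alone was called and the median was -0.12. Better known members had lower values in 35S:CO without passing: COR15A, for a cold-regulated chloroplast protein, stood at 396 and 247 FPKM in Col-0 and at 103 and 65.0 FPKM in 35S:CO (-1.92 ± 0.41, adjusted p = 0.194). ABF3, a transcription factor of abscisic acid signalling, stood at 7.57 and 8.92 FPKM in Col-0 and at 1.86 and 2.36 FPKM in 35S:CO (-1.57 ± 0.35, adjusted p = 0.196).

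The 3 remaining genes have no well described role in petals. AT2G27420, for a papain-type cysteine proteinase, had no FPKM above 0 in Col-0, against 15.9 and 8.15 FPKM in 35S:CO. Its difference was 3.64 ± 0.40 (adjusted p = 0.00382). With single libraries left out in turn it ran from 3.19 to 4.08, and the call was not kept in each of these fits. AT3G28820, for a protein with a DUF1216 domain, was listed at 0 in Col-0 and in co-10 at ZT4, against 26.9 and 15.2 FPKM in 35S:CO (4.41 ± 0.41, adjusted p = 0.00115). It shares 38.8% of its 75-base stretches with AT3G28810, which stood at 58.1 and 79.1 FPKM in Col-0 and at 76.5 and 41.2 FPKM in 35S:CO, so reads may have been divided between them. At ZT16 AT3G28820 was also high in co-10 petals, at 58.1 and 77.0 FPKM, against 0 and 0.370 FPKM in Col-0. AT2G25510, for an uncharacterized protein, stood at 0.963 and 6.30 FPKM in Col-0 and at 98.2 and 43.4 FPKM in 35S:CO (4.13 ± 0.62, adjusted p = 0.033). Its call was the least stable, passing in 6 of 15 alternative settings. With single libraries left out in turn, the difference ran from 3.19 to 5.08.

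Among genes that did not pass, those with the lowest p on the higher side included defence genes. PR2, listed as BGL2 and encoding a beta-1,3-glucanase of pathogen defence, had no FPKM above 0 in Col-0, against 4.44 and 3.59 FPKM in 35S:CO (2.32 ± 0.39, adjusted p = 0.0841). The chitinase gene AT2G43570 was at 0 in both Col-0 libraries and at 17.0 and 11.0 FPKM in 35S:CO (3.87 ± 0.69, adjusted p = 0.117). AT3G13950, annotated as an ankyrin protein, had 0.216 and 0 FPKM in Col-0 and 9.00 and 5.12 FPKM in 35S:CO (2.83 ± 0.48, adjusted p = 0.0816). AT5G04347, of the self-incompatibility S1 family, differed by 2.44 ± 0.43 (adjusted p = 0.116) and the remorin gene AT1G30320 by 2.11 ± 0.38 (adjusted p = 0.122). In the salicylic acid list limma called 0 of 11 genes and the median was 0.62. An unadjusted p under 0.05 was found for 5 genes, all of them higher, against 2.39% of all genes on the higher side. PR2 reached 1 FPKM only in 35S:CO petals, so it entered the test through the group where it was high. The median and the count of the list include such a gene and were not tested. PR1 and PR5, secreted proteins induced by salicylic acid, were both at 0 in Col-0, and PR1 stood at 15.1 and 3.67 FPKM and PR5 at 8.82 and 3.02 FPKM in 35S:CO (adjusted p = 0.321 and 0.614). All of these were low in absolute terms. At ZT16 the salicylic acid list had a median of -0.35 and 0 called genes.

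On the lower side, after AT5G03285, the lowest p belonged to AT1G69840, of the SPFH/Band 7 membrane protein family, at 91.9 and 80.2 FPKM in Col-0 and 20.8 and 27.5 FPKM in 35S:CO (-1.80 ± 0.34, adjusted p = 0.141). The ATPase-family gene AT1G43910 differed by -1.62 ± 0.32 (adjusted p = 0.161), and the calmodulin-like gene CML23 by -2.05 ± 0.41 (0.161). AT5G19250, for a GPI-anchored glycoprotein, differed by -1.44 ± 0.30 (0.185), and AT1G74456, a locus without an annotated product, by -4.23 ± 0.88 (0.186). In co-10 petals AT1G69840 stood at 34.2 and 41.5 FPKM and AT1G74456 was at 0 in both libraries, so for these 2 the mutant also lay under Col-0. Neither was called between co-10 and Col-0 (adjusted p = 0.45 and 0.153).

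The rest of the photoperiod machinery showed no call besides CO and FT, which were 2 of 16 flowering genes tested. At an unadjusted p under 0.05, 3 members were higher (CO, FT and TSF) and 4 lower. The lower ones were the MADS-box gene CAL, at 4.24 and 3.48 FPKM in Col-0 and 0 and 0.549 FPKM in 35S:CO (-1.96 ± 0.53, adjusted p = 0.352), SPL9 (-1.13 ± 0.42), SNZ (-1.07 ± 0.44) and SPL5 (-1.33 ± 0.57). SOC1, a downstream integrator, stood at 19.9 and 8.09 FPKM in Col-0 and at 18.2 and 12.3 FPKM in 35S:CO. LFY and FLC were at 0 in all 4 libraries. Of 19 CONSTANS-like and B-box genes 0 were called and the median was -0.26, with 3 higher at an unadjusted p under 0.05. BBX32 stood at 2.68 and 5.75 FPKM in Col-0 and at 27.8 and 35.7 FPKM in 35S:CO (2.71 ± 0.47, adjusted p = 0.108). BBX31, a short B-box protein known to bind CO, stood at 3.39 and 5.43 FPKM in Col-0 and at 27.0 and 21.1 FPKM in 35S:CO (2.23 ± 0.43, adjusted p = 0.16). Both had no overlap between the groups, as had 38.2% of all genes. At ZT16 limma called 5 of the 19 higher, among them BBX32 (3.30 ± 0.47, adjusted p = 0.00684). The 5 NF-Y subunits that partner CO ranged from -2.03 to -0.02, with NF-YB3 at 111 and 67.1 FPKM in Col-0 and 41.7 and 20.7 FPKM in 35S:CO (-1.52 ± 0.45, adjusted p = 0.438) and NF-YC4 at -2.03 ± 0.74 (0.629). Neither clock list held a called gene (3 and 1 lower at an unadjusted p under 0.05), with medians of -0.11 for 14 morning-phased and -0.13 for 16 evening-phased genes. RVE7 (-1.79 ± 0.45) and RVE4 (-0.76 ± 0.34) had the lowest p in the morning list and ZTL (-1.15 ± 0.34) and GI (0.99 ± 0.46) in the evening list. Of 9 floral organ identity genes 0 were called and the median was -0.03.

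Jasmonate genes, named in the study's title, gave no call at ZT4. The 15 biosynthesis genes had a median of -0.30, 11 of them under 0, and the 20 signalling genes had a median of -0.45, 17 of them under 0, against 9957 of 17876 genes under 0 in all. By limma, 2 genes of each list had an unadjusted p under 0.05, all of them lower. AOS, for the first committed enzyme of jasmonate synthesis, stood at 15.9 and 22.6 FPKM in Col-0 and at 5.90 and 8.83 FPKM in 35S:CO (-1.28 ± 0.34, adjusted p = 0.333). AOC1, the next enzyme, differed by -1.4 ± 0.61 (0.779). The repressor genes JAZ8 and JAZ6 differed by -1.31 ± 0.53 (0.716) and -0.75 ± 0.33 (0.801). Of 7 jasmonate-responsive genes 0 were called and the median was 0.21, with TAT3 at 1.55 ± 0.64 (0.743) and the chitin-binding protein gene HEL at 1.38 ± 0.68 (0.849).

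Senescence genes gave no call either, 0 of 20, with a median of 0.07 and 2 higher at an unadjusted p under 0.05. SAG12, a cysteine protease gene widely used as a senescence marker, stood at 255 and 245 FPKM in Col-0 petals and at 161 and 401 FPKM in 35S:CO petals, and the groups overlapped. NAP, a NAC transcription factor of senescence, stood at 416 and 307 FPKM in Col-0 and at 239 and 189 FPKM in 35S:CO (-0.75 ± 0.40, adjusted p = 0.893). SEN1 and WRKY54 had the lowest p of the list, at 1.5 ± 0.65 (0.771) and 1.58 ± 0.70 (0.8). Of 22 sugar genes 0 were called and the median was 0.43, with 5 higher and 4 lower at an unadjusted p under 0.05. STP13, a hexose uptake transporter, stood at 2.68 and 3.27 FPKM in Col-0 and at 10.2 and 16.0 FPKM in 35S:CO (1.80 ± 0.36, adjusted p = 0.164), and SWEET1, a glucose transporter, at 379 and 242 FPKM in Col-0 and 90.9 and 64.3 FPKM in 35S:CO (-1.97 ± 0.43, adjusted p = 0.194). Of 31 photosynthesis genes 0 were called, 22 were under 0 and the median was -0.23, with 5 higher and 2 lower at an unadjusted p under 0.05. LHCB2.3, of light harvesting, differed by 2.23 ± 0.51 and RCA, for Rubisco activase, at 636 and 698 FPKM in Col-0 and 1994 and 1915 FPKM in 35S:CO, by 1.55 ± 0.36 (adjusted p = 0.214 for both). The summed photosynthesis list ran from 9513 to 11852 FPKM in Col-0 and from 11168 to 13128 FPKM in 35S:CO. In whole petals the number of green cells and the RNA per cell cannot be told apart.

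The remaining lists had 0 called genes. Their medians were -0.22 for 14 flavonoid and phenylpropanoid genes, -0.14 for 11 cuticle genes, -0.31 for 11 alpha-expansins, 0.20 for 16 ethylene genes and -0.01 for 10 abscission genes. At an unadjusted p under 0.05 by limma they held 2 flavonoid and 2 ethylene genes that were higher and 1 abscission gene that was lower. Markers of pollen and anther (10 tested) had a median of 0.26, those of carpel, ovule and seed (6 tested) of 0.04 and those of root (2 tested) of 0.23. C4H, of phenylpropanoid synthesis, had the lowest p in these lists, at 8.59 and 11.6 FPKM in Col-0 and 27.8 and 26.4 FPKM in 35S:CO (1.35 ± 0.30, adjusted p = 0.196). PAL1, one step before it, differed by 0.82 ± 0.30 (0.651), and ACO4, for the last step of ethylene synthesis, by 1.93 ± 0.62 (0.535).

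**Figure D4:**
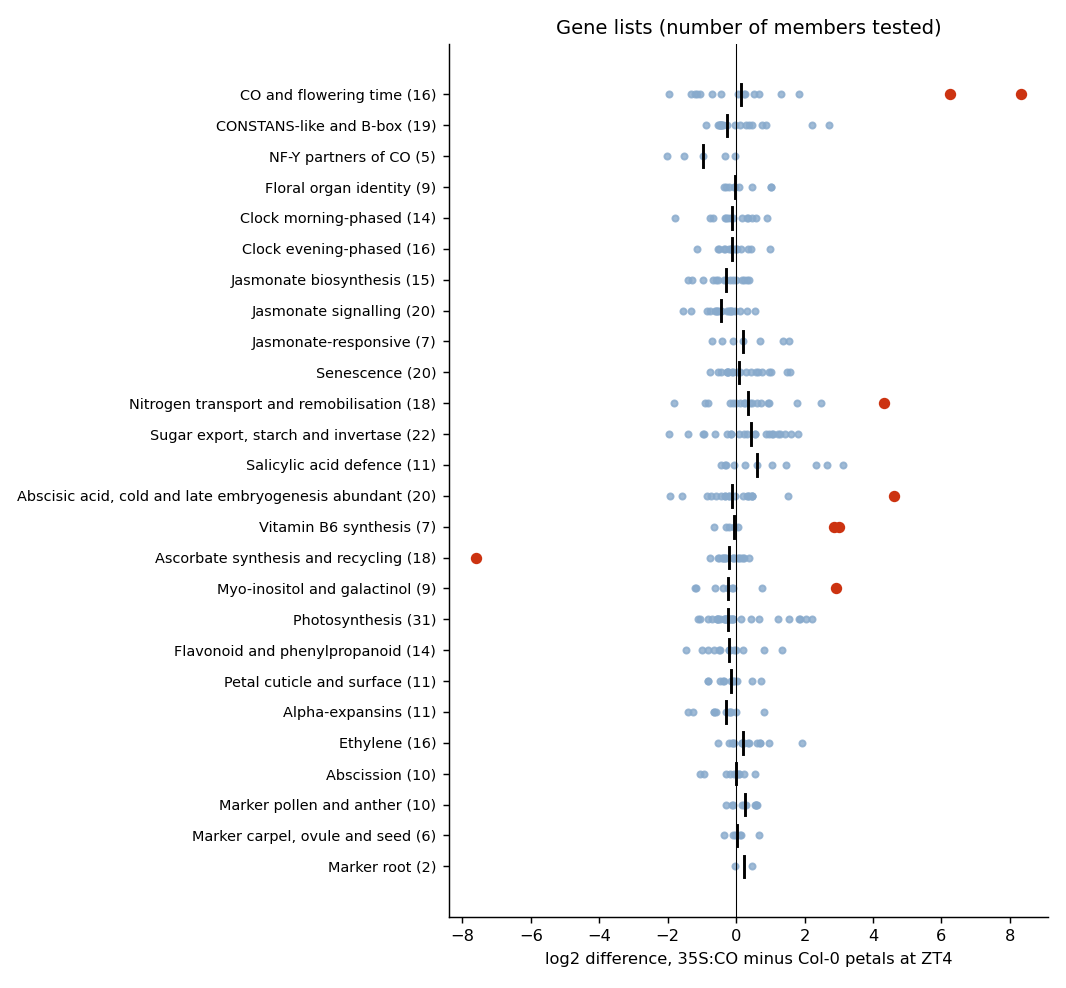
Each point is the log2 difference of 1 tested list member between 35S:CO and Col-0 petals at ZT4, with called genes in red and the list median as a black bar. The 7 called genes CO, FT, AMT1;2, LEA3, PDX1.1, PDX1L4 and MIPS2 lie on the right and the called gene ATMDAR2 on the left. The other members did not pass, and medians run from -0.96 to 0.62.

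At ZT16 the same genotypes were compared in 4 other petal libraries, in which 204 genes (1.14%) were called. The 19 genes of the morning all had the same sign there, and 15 were called in the same direction, which is 78.9% of the ZT4 list and 7.35% of the ZT16 list. These calls are no independent repeat. Both times were tested in 1 fit, in which each gene has the same standard error at ZT4 and ZT16. The share of equal signs over all genes is not given here. FT stood at 1.68 and 1.35 FPKM in Col-0 and at 813 and 352 FPKM in 35S:CO at ZT16 (7.74 ± 0.71), LEA3 at 4.79 and 1.29 against 423 and 449.5 FPKM (6.91 ± 0.47). ATMDAR2 was again at 0 in each 35S:CO library, against 97.5 and 68.7 FPKM. The 4 not called at ZT16 were AT2G27420 (1.73 ± 0.40), MS2 (1.4 ± 0.38), PMT5 (0.61 ± 0.31) and AT3G02555 (-1.20 ± 0.44). At ZT16 AT3G02555 stood at 48.2 and 41.1 FPKM in Col-0, at 24.3 and 14.6 FPKM in 35S:CO and at 4.39 and 9.74 FPKM in co-10. PMT5 was higher at ZT16 in Col-0 petals too, at 236 and 214 FPKM, against 402 and 292 FPKM in 35S:CO. None of the 19 passed the test of the interaction, the difference between the 2 times, in which the lowest adjusted p among them was 0.347 and 9 had an unadjusted p under 0.05. The interaction called 4 of 17876 genes (0.0224%), none of them called at ZT4, and 1202 (6.72%) had an unadjusted p under 0.05.

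**Figure D5:**
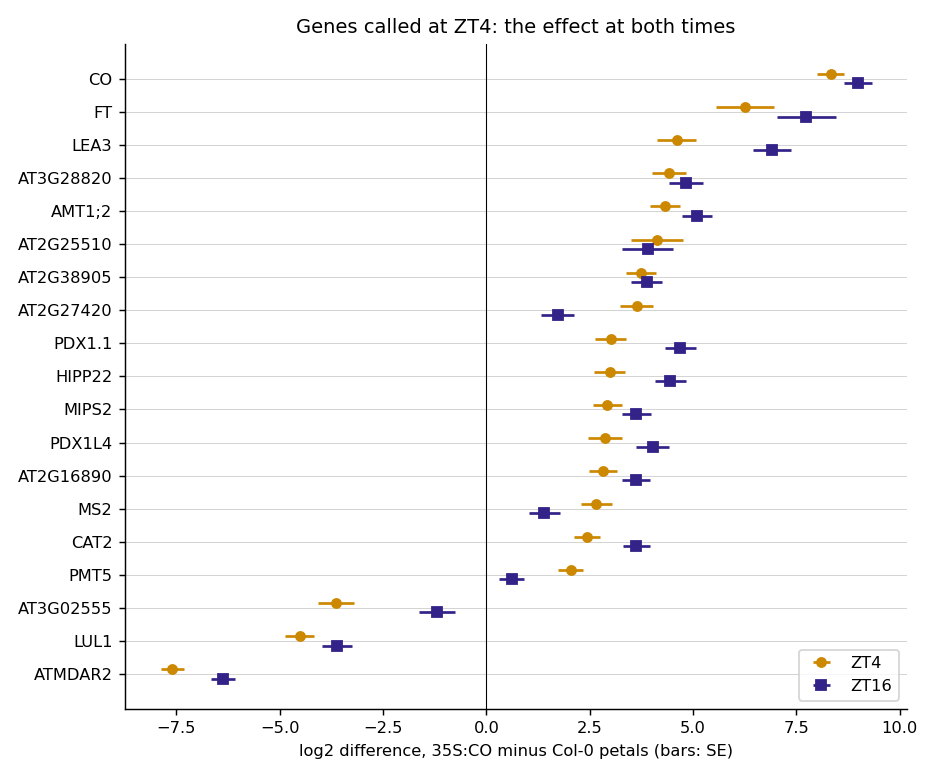
For the 19 genes called at ZT4, the log2 difference between 35S:CO and Col-0 petals with its standard error is shown at ZT4 (circles) and at ZT16 (squares). All 19 keep their sign, and 12 have the larger absolute difference at ZT16. ATMDAR2, LUL1, AT2G25510, AT2G27420, MS2, PMT5 and AT3G02555 lie nearer to 0 there, and the last 4 of these were not called at ZT16.

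Seedlings at ZT16 gave a further comparison in separate libraries and a separate fit, with 2252 of 19214 genes called (11.7%). Of the 19 petal genes 18 were tested there and 15 were called in the same direction. ATMDAR2 stood at 86.4 and 74.0 FPKM in Col-0 seedlings and at 2.22 and 3.77 FPKM in 35S:CO seedlings (-4.37 ± 0.21), low but above 0. AT2G27420 stood at 9.29 and 4.95 FPKM in Col-0 and at 150.3 and 143 FPKM in 35S:CO seedlings (4.24 ± 0.27). AMT1;2 was already at 28.2 and 17.0 FPKM in Col-0 seedlings and at 47.5 and 48.8 FPKM in 35S:CO (1.1 ± 0.24, adjusted p = 0.0538). AT2G16890 (2.33 ± 0.73, adjusted p = 0.144) and AT3G02555 (-0.35 ± 0.14, adjusted p = 0.169) were not called, and AT3G28820 was at 0 in all 4 seedling libraries.

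The same genes were also read in morning petals without CO function. The co-10 comparison uses the same Col-0 libraries, so its values are given side by side only. Of the 19 genes limma called none between co-10 and Col-0. An unadjusted p under 0.05 was found for 3, all higher in co-10: AMT1;2 (0.83 ± 0.36), AT2G16890 (1.07 ± 0.34) and CAT2 (0.72 ± 0.32). ATMDAR2 differed by -0.26 ± 0.28 and FT by 0.55 ± 0.71. Of the genes that rose, CO was at -0.27 ± 0.33, and AT3G28820, AT2G38905 and AT2G27420 were at 0 FPKM in both genotypes. The others were all higher in co-10, from 0.03 ± 0.47 for LEA3 to 1.31 ± 0.62 for AT2G25510. Between 35S:CO and co-10 at ZT4, adjusted p by limma was 0.0544 for CAT2, 0.0625 for AT2G16890, 0.0804 for MS2, 0.0855 for PMT5 and 0.0912 for AT2G25510. These were not called there, and the other genes of the 19 were. Over all genes limma called 4 (0.0224%) between co-10 and Col-0 at ZT4, all lower in co-10. The lower depth of co-10 replicate 2, about 5220000 fragments, limits that comparison.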

How the data were processed

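Strand-specific mRNA libraries of petals and seedlings were aligned to TAIR10 with HISAT2 after FastQC, per the submitters' processing notes. Neither the program behind the levels nor the annotation release is given in the sources used here. The deposited values are FPKM for 32833 loci; the unit was read from the values. FPKM carry no counts, so depth is an estimate: 32.7% to 37.3% of low values in the 4 libraries lay within 0.02 of a whole number of fragments, against 4% if spread evenly, and no counting interval is given.

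log2(FPKM + 1) values of the 12 petal libraries were fitted by limma 3.58.1 (R 4.3.3, statmod 1.5.0; 6 group means, trended robust prior variance, two-sided) for genes that reached 1 FPKM in 2 or more of them. Values are given per library, with n = 2 per group, and differences ± SE. The fit was tested on simulated data.

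Named were CO, FT, all called genes, the 6 genes with the lowest p in each direction that did not pass, all called list members or the 2 with the lowest p, family members of called genes, and called interaction genes. The comparison, the 26 lists (426 members, 357 tested) and this rule were chosen with earlier results of these data known. SAG12, NAP, SOC1, LFY, FLC, TSF, CAL, SPL9, SNZ, SPL5, APX1, NIA1, RVE4, AOC1, PR5, MT1A, C4H and ACO4 were added to the text after their values were seen.

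Sequences, gene positions and 75-base stretches shared between transcripts come from RefSeq's TAIR10.1, in which 32548 loci were matched. Replicate numbers were not used to pair the samples in the main fit. Deviations of equally numbered libraries correlated at 0.004 between Col-0 and 35S:CO at ZT4. Over all pairs of petal groups they correlated at -0.302 to 0.228 (0.228 for Col-0 and 35S:CO at ZT16). Such values cannot exclude a shared harvest or preparation. Alternatives were other added values, filters, scalings, fits, a replicate block and leaving out each library.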

Additional observations from a re-analysis of the deposited data

Results flagged for a closer look

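The following 4 genes differed in their response to 35S:CO between ZT16 and ZT4 by the interaction test, each with the greater value at ZT16. The call of CBL6 passed without each of the 4 ZT4 libraries and with 5 FPKM added (adjusted p = 0.00402), and the others were less stable. BBX30 was lost without Col-0 replicate 1 (adjusted p = 0.0739), 35S:CO replicate 1 (0.0926) or 35S:CO replicate 2 (0.0619), and UP6 and COR15A without any one of the 4, with adjusted p from 0.0686 to 0.202 and from 0.067 to 0.175. With 5 FPKM added, BBX30 (0.0923), UP6 (0.0999) and COR15A (0.0553) were also lost, UP6 also after quantile normalization (0.0534), and COR15A also without a filter (0.0664), with 0.1 FPKM added (0.0616) and with a constant prior variance (0.066). CBL6, for a calcineurin B-like calcium sensor, differed by 5.59 ± 0.38 (adjusted p = 2.75e-04): at ZT4 it stood at 51.8 and 61.0 FPKM in Col-0 and at 51.0 and 47.4 FPKM in 35S:CO, and at ZT16 at 0 and 0 against 41.0 and 41.3 FPKM. BBX30, a short B-box protein known to bind CO, differed by 3.88 ± 0.39 (adjusted p = 0.00656), at 47.1 and 44.6 against 66.3 and 60.2 FPKM at ZT4 and 0.0839 and 0 against 19.5 and 20.6 FPKM at ZT16. UP6, for an uncharacterized protein, differed by 3.97 ± 0.49 (adjusted p = 0.0335), at 13.3 and 12.6 against 20.8 and 19.4 FPKM at ZT4 and 0 and 0 against 25.3 and 20.4 FPKM at ZT16. It overlaps AT1G05257 on the other strand, with which it shares 9.0% of its 75-base stretches. COR15A differed by 4.58 ± 0.58 (adjusted p = 0.0335): its difference was -1.92 ± 0.41 at ZT4, where it did not pass, and 2.66 ± 0.41 at ZT16, at 3.66 and 2.69 FPKM in Col-0 and 34.3 and 18.5 FPKM in 35S:CO. All 4 genes in Col-0 had lower values at ZT16 than at ZT4, in both libraries. In the interaction, 1202 genes (6.72%) had an unadjusted p under 0.05.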

How the results depend on the processing

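Each of the 19 called genes kept its direction in all 15 alternative settings, and of the 285 gene and setting pairs 234 kept the call and 51 lost it. ATMDAR2, CO, LUL1, AMT1;2, AT3G28820, AT2G38905 and LEA3 passed without each of the 4 libraries. The number called at ZT4 was 37 (31 higher, 6 lower) with 5 FPKM added, 32 (26 and 6) after quantile normalization, 39 (32 and 7) in a fit without co-10, 20 with 6 lower without a filter, and 25 with 5 lower without co-10 replicate 2. Without 1 of the 4 libraries it ran from 7 to 24, with 5 to 13 higher and 2 to 14 lower. Rescaling without ribosomal RNA and organelle loci moved the median of all genes from -0.07 to 0.075 and gave 21 calls (17 and 4). The interaction called 4 genes, all higher, but 1 with 5 FPKM added, 65 (45 higher, 20 lower) without co-10, 10 (8 and 2) without co-10 replicate 2, and 1 lower gene each without a filter and after quantile normalization. Without 1 of the 4 libraries it called 1 to 3, with 1 to 3 higher and 0 to 1 lower. With replicate number as a block, which the main fit did not use, 20 genes were called at ZT4 (AT2G25510 was lost) and 7 in the interaction (6 and 1). The cause of these shifts was not tested. Depth limits genes near 0 most, and 2 libraries per group limit every call. A fit without 1 of the 4 libraries leaves 1 in that group, which by itself widens the standard error.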

Other observations

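Around MS2, other genes of methionine recycling and sulfate reduction were read after its value was seen. SAHH2, for a hydrolase of S-adenosylhomocysteine, stood at 13.4 and 21.7 FPKM in Col-0 and at 92.4 and 72.8 FPKM in 35S:CO (2.2, adjusted p = 0.161), and its more abundant relative HOG1 at 136 and 193 against 68.4 and 67.1 FPKM (-1.25). APR2, for a sulfate-reducing enzyme, stood at 7.13 and 12.5 against 35.8 and 42.8 FPKM (1.94, adjusted p = 0.141), and APR1 at 10.6 and 12.1 against 13.6 and 9.44 FPKM. The S-adenosylmethionine synthetase gene SAM1 differed by 0.23. None of these was called at ZT4. At ZT16 limma called SAHH2 (3.22 ± 0.43, adjusted p = 0.00473) and APR2 (1.76 ± 0.37, adjusted p = 0.0484) higher, and did not call HOG1, APR1 or SAM1.

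Listed under 1 FPKM in both Col-0 libraries and over 5 FPKM in both 35S:CO libraries were 12 genes. Besides CO, AT2G27420, AT2G38905, AT3G28820, AT3G13950 and the chitinase gene they were GSTF6, KTI1, AT2G30180, AT3G45850, AT3G60415 and AT4G36470. KTI1, for a trypsin inhibitor, stood at 0 and 0.331 FPKM in Col-0 and at 9.37 and 7.74 FPKM in 35S:CO at ZT4, and at 152 and 64.2 against 32.3 and 16.1 FPKM at ZT16, where the order was the opposite; neither difference was called (adjusted p = 0.17 at ZT4 and 0.208 at ZT16).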
